A study of Mus musculus with 8 samples.

Results

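The p53 family and a set of its target genes were examined in thymic lymphomas that lack p53. The set was a fixed list of 36 mouse genes, matched by symbol, out of 13681 symbols in the deposited table. Of these, 33 had a value and 32 passed the filter on low values, while Cgref1, Eda2r and Gls2 were not analysed here. Where a gene had several transcript entries, the entry with the highest mean stood for it, and every entry of Trp53 and Trp63 is given.

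RNA was sequenced from 8 thymic lymphomas of C57BL/6 mice that were 10 weeks old. All tumours carried the p53-/- genotype. A genotype of ΔNp63Δ/Δ;p53-/- was given for 3 of them and ΔNp73Δ/Δ;p53-/- for another 3, and these lymphomas were injected with Ad-CRE-mCherry, an adenovirus that carries the Cre recombinase gene, and taken 48 h later. The 2 controls, of genotype ΔNfl/fl;p53-/-, were injected with Ad-mCherry, which lacks Cre, on the same schedule. Because the controls had another genotype and another virus, Cre and deletion cannot be told apart in any comparison with them. The labels say neither which gene is floxed in the controls nor which part of Trp53 the null allele lacks. They also leave unsaid whether the libraries of a group were separate animals, and a p-value here reflects the spread between these samples only, which may be technical. Values are quantile-normalised FPKM, a level per length of transcript, and are listed in replicate order. The depth is unknown, as no counts were used here.

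p53 is a transcription factor that stress such as DNA damage stabilises. It binds a repeated, palindromic half-site near its target genes and switches on cell cycle arrest, apoptosis, repair and metabolic genes, among them its own inhibitor Mdm2. Its relatives p63 and p73 bind closely related sites. They are made as full-length forms and as ΔN forms, which lack the N-terminal transactivation domain and can oppose the other members of the family. Mice without p53 characteristically develop thymic lymphoma, a tumour of immature T cells.

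Sequence around the start sites was read for 27 of the 36 genes, from 250 bases before to 50 after the RefSeq start (GRCm38.p6). A perfect match to the p53 half-site consensus, a palindromic pattern of 10 bases that reads alike on both strands, lay in the windows of 12 of these 27 genes (44.4%). Among all genes with such a window 9.55% held a match. The stretches below are those of the family, feedback and cell cycle genes with a match upstream of the start, so that the level of each gene can be read beside its sequence. Capitals mark the half-site, letters run 5′ to 3′ on the gene's strand, and for Cdkn1a the match nearest the start is shown.
Trp53: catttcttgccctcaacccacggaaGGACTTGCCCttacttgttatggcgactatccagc
Mdm2: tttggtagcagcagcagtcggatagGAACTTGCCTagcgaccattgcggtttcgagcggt
Pml: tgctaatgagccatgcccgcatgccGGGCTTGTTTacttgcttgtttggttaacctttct
Cdkn1a: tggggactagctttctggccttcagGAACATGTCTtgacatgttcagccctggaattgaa
Ccng1: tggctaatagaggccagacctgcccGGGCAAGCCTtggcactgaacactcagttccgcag
Gadd45a: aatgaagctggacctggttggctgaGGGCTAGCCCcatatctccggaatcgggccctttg
Ckap2: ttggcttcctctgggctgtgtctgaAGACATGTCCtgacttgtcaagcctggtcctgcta

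These stretches lie at chr11:69580259-69580318 (Trp53, plus strand), chr10:117710910-117710969 (Mdm2, minus), chr9:58249896-58249955 (Pml, minus), chr17:29090903-29090962 (Cdkn1a, plus), chr11:40755437-40755496 (Ccng1, minus), chr6:67037413-67037472 (Gadd45a, minus) and chr8:22185988-22186047 (Ckap2, minus). The half-site ended 42 bases before a RefSeq start of Cdkn1a, 31 before one of Gadd45a and 194 before one of Ckap2. Windows were matched by gene symbol, so such a start need not be that of the transcript entry whose level is given. A match is a run of letters and does not show that any factor binds there. As the levels below show, genes with a match included Ckap2, whose levels were lowest in 5 libraries given Cre, Pml, whose levels were higher in all 6 libraries given Cre than in both controls, and Gadd45a, whose groups overlapped.

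ΔNp63Δ/Δ-labelled replicate 2 stood apart from the rest of the series. Its median correlation with the other libraries over all genes tested was 0.848, against 0.915 to 0.957 for the other 7. It was the lowest of the 8 libraries for 20 of the 32 genes tested (62.5%) and for 32.9% of all genes. The median of the 32 genes there lay 0.59 below the control mean on the log2(FPKM + 1) scale, while the medians of the other 7 libraries lay between -0.06 and 0.11. Counts and tests that rest on that library are therefore also given without it.

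**Figure D1:**
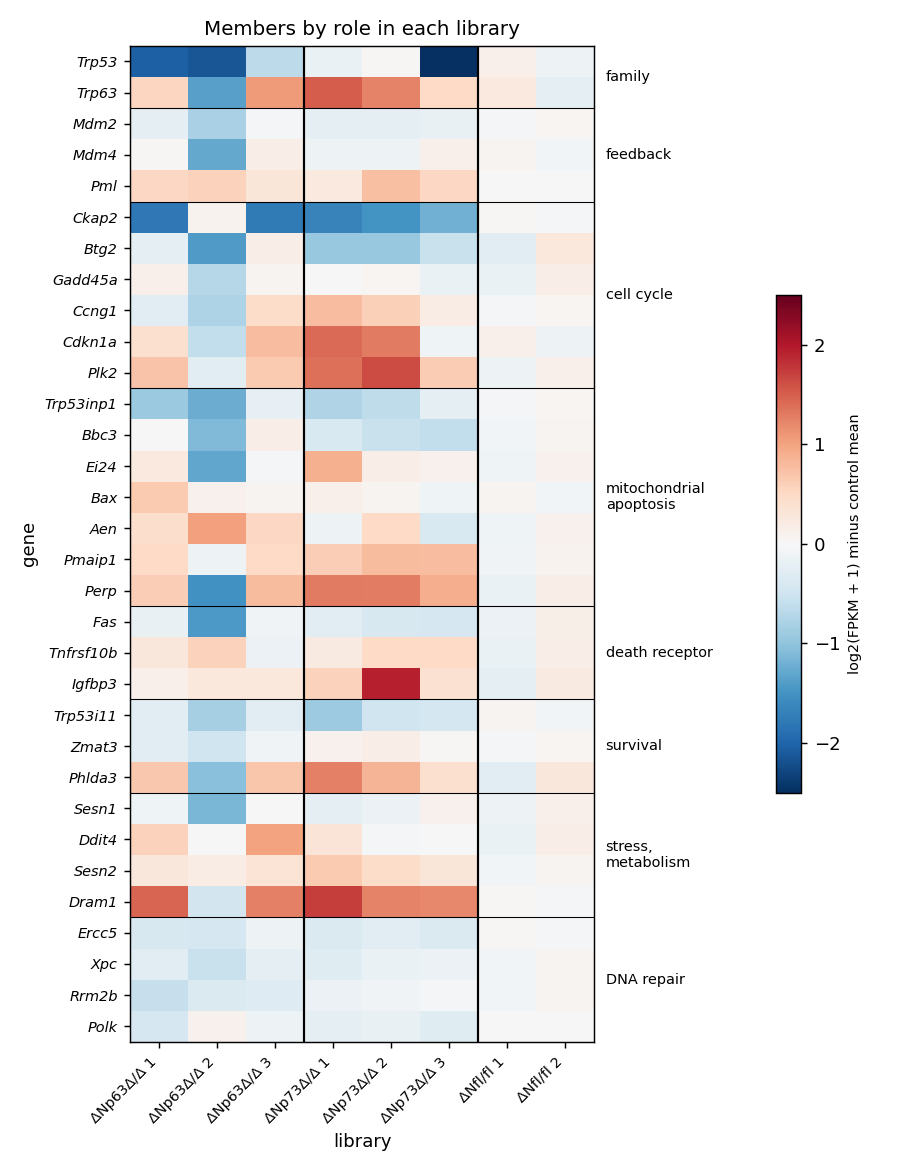
Level of each of the 32 genes tested (rows, grouped by role) in each of the 8 libraries (columns), as log2(FPKM + 1) minus the mean of the 2 controls, with red above and blue below the control mean. ΔNp63Δ/Δ-labelled replicate 2 is mostly blue, with a median of -0.59, and Ckap2 is blue in the other 5 libraries given Cre.

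With all 8 libraries no gene of the set passed the threshold in any comparison. The limma test with Benjamini-Hochberg adjustment over 12921 genes, at an adjusted p of 0.05, called 0 of 32 in ΔNp63Δ/Δ-labelled tumours against controls, where 0.0929% of all genes were called. It called 0 of 32 in ΔNp73Δ/Δ-labelled tumours against controls and 0 of 32 in ΔNp73Δ/Δ-labelled against ΔNp63Δ/Δ-labelled tumours, where 0.0542% of all genes were called in each. At an unadjusted p under 0.05 the counts were 3, 7 and 4 of 32 in these comparisons, beside 13.0%, 21.3% and 10.5% of all genes. Medians of the log2 fold change on the log2(FPKM + 1) scale were -0.18, 0.01 and 0.22 over the set and -0.02, -0.07 and -0.02 over all genes.

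Without ΔNp63Δ/Δ-labelled replicate 2 the same test called 6 of 32 genes (18.8%) in ΔNp63Δ/Δ-labelled tumours against controls, beside 22.5% of all genes. Of these, 4 rose (Dram1, Ddit4, Perp and Pmaip1), beside 11.7% of all genes, and 2 fell (Ckap2 and Rrm2b), beside 10.8%. It called 13 of 32 (40.6%) in ΔNp73Δ/Δ-labelled tumours against controls, beside 33.0% of all genes. There 8 rose (Dram1, Plk2, Perp, Trp63, Phlda3, Pmaip1, Pml and Sesn2), beside 16.8% of all genes, and 5 fell (Ckap2, Btg2, Trp53i11, Bbc3 and Fas), beside 16.1%. It called 0 of 32 between the deletion groups, beside 0.149% of all genes, with 6 of 32 at an unadjusted p under 0.05, beside 15.6% of all genes. Both comparisons with control rest on the same 2 control libraries. When each of the remaining 7 libraries was also left out in turn, Ckap2 and Dram1 passed in all 7 fits of both comparisons, and Perp and Pmaip1 did so for ΔNp73Δ/Δ-labelled tumours. Every other call was lost in at least 2 of the 7 fits, and each of them was lost without control replicate 2.

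In the ΔNp73Δ/Δ-labelled comparison the fold changes are the same with and without ΔNp63Δ/Δ-labelled replicate 2. That library enters the comparison through the shared estimate of the spread and through the filter on low values. The filter left 12921 genes tested with it and 12782 without it. The median standard error over the set was 0.32 with that library and 0.16 without it.

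**Figure D2:**
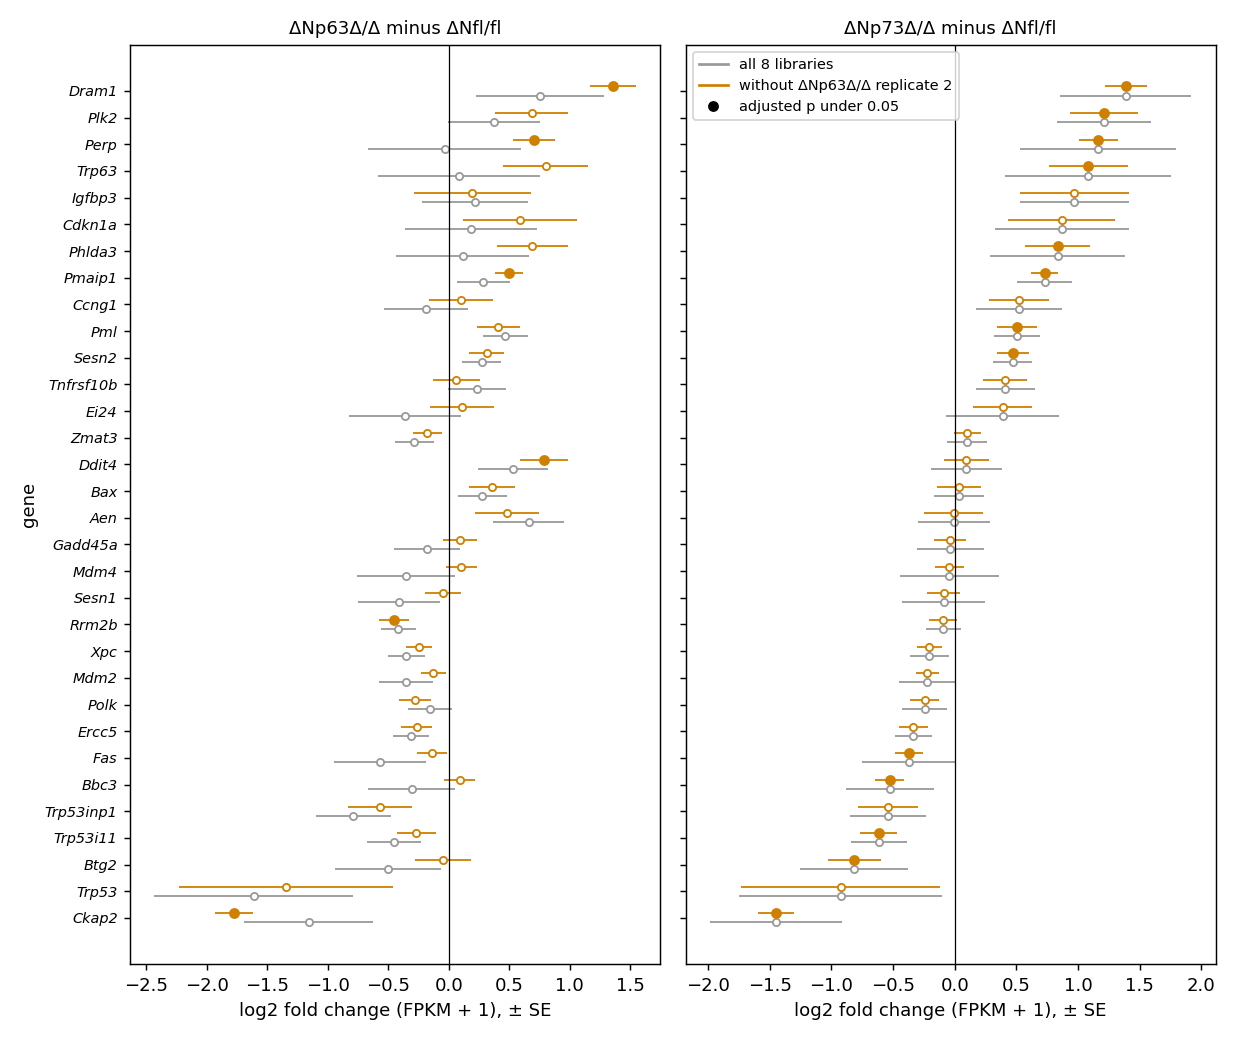
Log2 fold change against controls (x axis, log2(FPKM + 1) scale, bars ± SE) of the 32 genes tested (y axis), for ΔNp63Δ/Δ-labelled tumours on the left and ΔNp73Δ/Δ-labelled tumours on the right, with all 8 libraries (grey) and without ΔNp63Δ/Δ-labelled replicate 2 (orange). Filled points passed an adjusted p of 0.05: none in grey, and 6 and 13 in orange.

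Trp53 itself was detected in every library of these p53-/- tumours. Its highest entry (NM_011640) was at 17.3, 16.1 and 46.3 FPKM in ΔNp63Δ/Δ-labelled libraries, 66.1, 75.9 and 10.96 FPKM in ΔNp73Δ/Δ-labelled libraries and 81.0 and 67.6 FPKM in controls. All ΔNp63Δ/Δ-labelled libraries lay below both controls, and the ΔNp73Δ/Δ-labelled libraries spanned from the lowest value of the series to within the range of the controls. An exact two-sided permutation test over samples gave p = 0.2 for ΔNp63Δ/Δ-labelled tumours against controls and p = 0.6 for ΔNp73Δ/Δ-labelled tumours against controls, where the smallest p it can give is 0.1. The log2 fold changes were -1.61 (SE 0.82, limma adjusted p = 0.455) and -0.92 (SE 0.82, limma adjusted p = 0.537). Without ΔNp63Δ/Δ-labelled replicate 2 the first of these was -1.35 (SE 0.88, limma adjusted p = 0.305). Its other entry (NM_001127233) was at 2.72, 5.57 and 2.28 FPKM in ΔNp63Δ/Δ-labelled libraries, 6.23, 9.33 and 2.01 FPKM in ΔNp73Δ/Δ-labelled libraries and 7.78 and 8.19 FPKM in controls. In both entries ΔNp73Δ/Δ-labelled replicate 3 was the lowest library. A level over the whole transcript does not check the null allele, because the labels do not give the part that is deleted.

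Trp63, the gene of p63, had 4 entries. In GENCODE M21 (GRCm38) all 4 begin at chr16:25801916, 118153 bases downstream of the most upstream coding transcript, which is the position of the ΔN start. The highest entry (NM_011641) was at 6.57, 1.05 and 9.91 FPKM in ΔNp63Δ/Δ-labelled libraries, 13.8, 11.3 and 6.38 FPKM in ΔNp73Δ/Δ-labelled libraries and 5.21 and 3.38 FPKM in controls. The ΔNp63Δ/Δ-labelled libraries overlapped the controls, with 2 above both and replicate 2 below both. Against controls the log2 fold change was 0.09 (SE 0.67, limma adjusted p = 0.973) with all libraries and 0.80 (SE 0.35, limma adjusted p = 0.144) without replicate 2, and the exact permutation p was 1.0. A lower ΔNp63 RNA was thus not detectable in this entry of the libraries labelled ΔNp63Δ/Δ, and which exons were removed is not given in the sources used here. ΔNp73Δ/Δ-labelled libraries lay above both controls, by 1.08 on the log2 scale (SE 0.67, limma adjusted p = 0.382, exact permutation p = 0.2). That difference passed without ΔNp63Δ/Δ-labelled replicate 2 (SE 0.32, limma adjusted p = 0.0394), in 1 of the 7 further fits.

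Of the other Trp63 entries, NM_001127264 and NM_001127263 had larger differences between the deletion groups than the highest entry. NM_001127264 was at 3.72, 0.777 and 5.91 FPKM in ΔNp63Δ/Δ-labelled libraries, 11.5, 9.03 and 10.4 FPKM in ΔNp73Δ/Δ-labelled libraries and 3.44 and 7.37 FPKM in controls. All ΔNp73Δ/Δ-labelled libraries were above all others in this entry, and the difference to the ΔNp63Δ/Δ-labelled ones was 1.54 (SE 0.49, limma adjusted p = 0.462). NM_001127263 was at 2.60, 0.0394 and 3.98 FPKM in ΔNp63Δ/Δ-labelled libraries, 6.81, 4.49 and 5.11 FPKM in ΔNp73Δ/Δ-labelled libraries and 4.53 and 3.71 FPKM in controls, a difference of 1.27 between the deletion groups (SE 0.53, limma adjusted p = 0.49). NM_001127265 was at most 4.29 FPKM in any library and was listed at 0 in ΔNp73Δ/Δ-labelled replicate 1 and at 0.0002 FPKM in ΔNp63Δ/Δ-labelled replicate 3. In ΔNp63Δ/Δ-labelled tumours against controls, NM_001127264 had a log2 fold change of -0.66 with all libraries (SE 0.54, limma adjusted p = 0.659). That of NM_001127263 was -0.94 (SE 0.59, limma adjusted p = 0.55) and that of NM_001127265 was -0.10 (SE 0.74, limma adjusted p = 0.973). Summed over the entries, Trp63 had a log2 fold change of -0.61 in ΔNp63Δ/Δ-labelled tumours against controls with all libraries, where the highest entry had 0.09. ΔNp63Δ/Δ-labelled replicate 2 was the lowest library in NM_011641, NM_001127264 and NM_001127263. The summed value and that of the highest entry both come from all libraries, so they differ through the entries used. The sum was not fitted without ΔNp63Δ/Δ-labelled replicate 2, so its dependence on that library was not tested.

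Epithelial cells are a known source of ΔNp63, and the level of epithelial marker genes is given for that reason. The FPKM sum of 8 epithelial genes was 516, 96.4 and 654 in ΔNp63Δ/Δ-labelled libraries, 657, 941 and 533 in ΔNp73Δ/Δ-labelled libraries and 446 and 426 in controls. ΔNp63Δ/Δ-labelled replicate 2 was the lowest library in this sum, as it was in the highest Trp63 entry, and none of the 8 genes was listed at 0 in all libraries. Their part in the Trp63 and Perp levels was not tested. In bulk tissue, fewer cells of a type and less RNA per cell cannot be told apart.

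**Figure D3:**
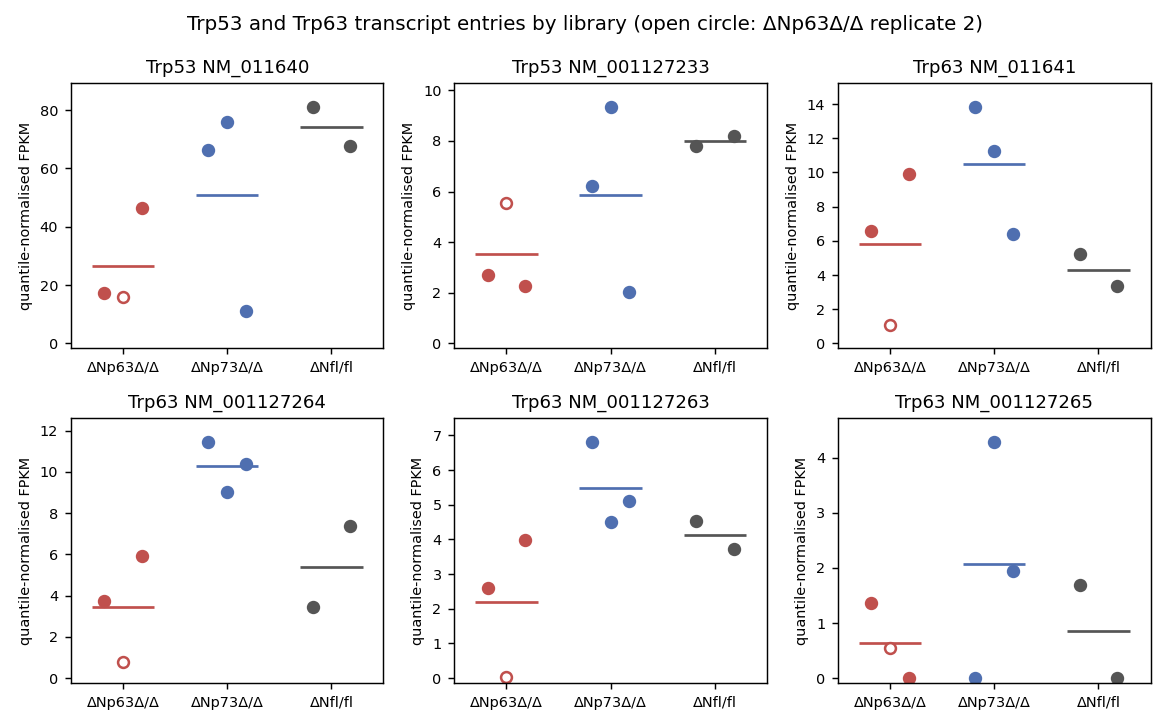
Quantile-normalised FPKM (y axis) of each Trp53 and Trp63 transcript entry by group (x axis), 1 point per library and a line at the group mean, with ΔNp63Δ/Δ-labelled replicate 2 as an open circle. Trp53 NM_011640 is lower in all 3 ΔNp63Δ/Δ-labelled libraries than in both controls, and Trp63 NM_001127264 is highest in the 3 ΔNp73Δ/Δ-labelled libraries.

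Of the 3 feedback genes, Mdm2 and Mdm4 did not pass and Pml was higher in all libraries given Cre. Mdm2, the ubiquitin ligase that degrades p53, averaged 18.2 ± 4.97 FPKM in ΔNp63Δ/Δ-labelled (SD, n = 3), 19.5 ± 0.374 FPKM in ΔNp73Δ/Δ-labelled (n = 3) and 22.9 ± 1.18 FPKM in control libraries (n = 2). Its relative Mdm4, which inhibits p53 without degrading it, averaged 18.3 ± 8.69, 21.0 ± 2.36 and 21.6 ± 1.42 FPKM in the same groups. Neither gene passed the test, with or without ΔNp63Δ/Δ-labelled replicate 2. Pml, the scaffold of nuclear bodies where p53 is modified, was at 9.66, 10.1 and 8.11 FPKM in ΔNp63Δ/Δ-labelled libraries, 7.78, 11.5 and 9.57 FPKM in ΔNp73Δ/Δ-labelled libraries and 6.38 and 6.45 FPKM in controls. In this highest entry every library given Cre was above both controls, also ΔNp63Δ/Δ-labelled replicate 2. The log2 fold change of Pml was 0.47 (SE 0.19, limma adjusted p = 0.355) in ΔNp63Δ/Δ-labelled and 0.50 (SE 0.19, limma adjusted p = 0.189) in ΔNp73Δ/Δ-labelled tumours. Without that replicate Pml rose in ΔNp73Δ/Δ-labelled tumours (limma adjusted p = 0.0489), a call that held in 1 of the 7 further fits.

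Pml is known as an interferon-induced gene, and the summed level of interferon-stimulated genes was also above both controls in every library given Cre. The FPKM sum of 14 such genes, none of them in the set, was 519, 153 and 559 in ΔNp63Δ/Δ-labelled libraries, 521, 759 and 388 in ΔNp73Δ/Δ-labelled libraries and 139 and 130.3 in controls. In ΔNp63Δ/Δ-labelled replicate 2 the sum was close to that of the controls. The highest Pml entry was above both controls in that library. The other Pml entry (NM_008884) was at 3.35 FPKM there, below the 7.27 and 7.10 FPKM of the controls. With all libraries 0 of the 14 passed, and without that replicate 11 rose in ΔNp63Δ/Δ-labelled and 12 in ΔNp73Δ/Δ-labelled tumours. Their part in the Pml levels was not tested.

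Among the 6 cell cycle genes tested, Ckap2 fell most when ΔNp63Δ/Δ-labelled replicate 2 was left out. It encodes a spindle-associated protein of dividing cells and has also been described as a p53 target. Ckap2 was at 2.74, 12.6 and 2.79 FPKM in ΔNp63Δ/Δ-labelled libraries, 3.07, 3.60 and 4.60 FPKM in ΔNp73Δ/Δ-labelled libraries and 12.1 and 11.7 FPKM in controls. ΔNp63Δ/Δ-labelled replicate 2 was at the level of the controls, and the other 5 libraries given Cre lay far below them. Without that replicate the log2 fold change was -1.78 (SE 0.16, limma adjusted p = 0.00176) in ΔNp63Δ/Δ-labelled tumours and -1.45 (SE 0.14, limma adjusted p = 0.00115) in ΔNp73Δ/Δ-labelled tumours. With all libraries the values were -1.16 (SE 0.53, limma adjusted p = 0.415) and -1.45 (SE 0.53, limma adjusted p = 0.189).

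Proliferation genes followed the same libraries as Ckap2. The FPKM sum of 20 such genes was 421, 1466 and 422 in ΔNp63Δ/Δ-labelled libraries, 423.5, 506 and 698 in ΔNp73Δ/Δ-labelled libraries and 1657 and 1601 in controls. All 20 had a negative log2 fold change in both comparisons with control, with medians of -1.14 for ΔNp63Δ/Δ-labelled and -1.58 for ΔNp73Δ/Δ-labelled tumours. With all libraries 0 of the 20 passed, and without ΔNp63Δ/Δ-labelled replicate 2 all 20 fell in each of these comparisons. Their part in the Ckap2 levels was not tested.

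The p53 targets that arrest the cycle did not move as a block. Cdkn1a, which encodes the cyclin-dependent kinase inhibitor p21, was at 15.7, 7.17 and 20.5 FPKM in ΔNp63Δ/Δ-labelled libraries, 32.4, 30.0 and 10.7 FPKM in ΔNp73Δ/Δ-labelled libraries and 12.7 and 10.5 FPKM in controls. Of the ΔNp73Δ/Δ-labelled libraries 2 were the highest of the series, and replicate 3 was within the range of the controls. Cdkn1a passed neither with all libraries nor without ΔNp63Δ/Δ-labelled replicate 2, where its log2 fold changes were 0.59 (SE 0.47, limma adjusted p = 0.401) in ΔNp63Δ/Δ-labelled and 0.87 (SE 0.43, limma adjusted p = 0.162) in ΔNp73Δ/Δ-labelled tumours.

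Plk2, a polo-like kinase induced by p53, was at 2.87, 0.973 and 2.71 FPKM in ΔNp63Δ/Δ-labelled libraries, 5.12, 6.25 and 2.65 FPKM in ΔNp73Δ/Δ-labelled libraries and 1.16 and 1.56 FPKM in controls. All ΔNp73Δ/Δ-labelled libraries were above both controls, and so were the ΔNp63Δ/Δ-labelled ones other than replicate 2. In ΔNp73Δ/Δ-labelled tumours the log2 fold change was 1.21, with SE 0.38 and limma adjusted p = 0.147 over all libraries, and SE 0.27 and limma adjusted p = 0.0164 without ΔNp63Δ/Δ-labelled replicate 2. That call was lost when either control was left out.

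Btg2, an antiproliferative gene, had the highest mean of the set. It was at 176, 78.3 and 235 FPKM in ΔNp63Δ/Δ-labelled libraries, 109, 109 and 142 FPKM in ΔNp73Δ/Δ-labelled libraries and 174 and 254 FPKM in controls. ΔNp73Δ/Δ-labelled libraries lay below both controls, and without ΔNp63Δ/Δ-labelled replicate 2 Btg2 fell by 0.81 on the log2 scale there (SE 0.21, limma adjusted p = 0.0272), in 4 of the 7 further fits. The ΔNp63Δ/Δ-labelled libraries overlapped the controls. Ccng1, which encodes cyclin G1, was at 31.1, 21.5 and 52.0 FPKM in ΔNp63Δ/Δ-labelled libraries, 64.9, 56.9 and 42.9 FPKM in ΔNp73Δ/Δ-labelled libraries and 36.3 and 38.6 FPKM in controls. Its ΔNp73Δ/Δ-labelled libraries were above both controls without passing the test. Gadd45a, a stress sensor linked to arrest and repair, averaged 10.2 ± 3.27 FPKM in ΔNp63Δ/Δ-labelled (SD, n = 3), 10.97 ± 0.900 FPKM in ΔNp73Δ/Δ-labelled (n = 3) and 11.3 ± 2.09 FPKM in control libraries (n = 2), and its groups overlapped.

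**Figure D4:**
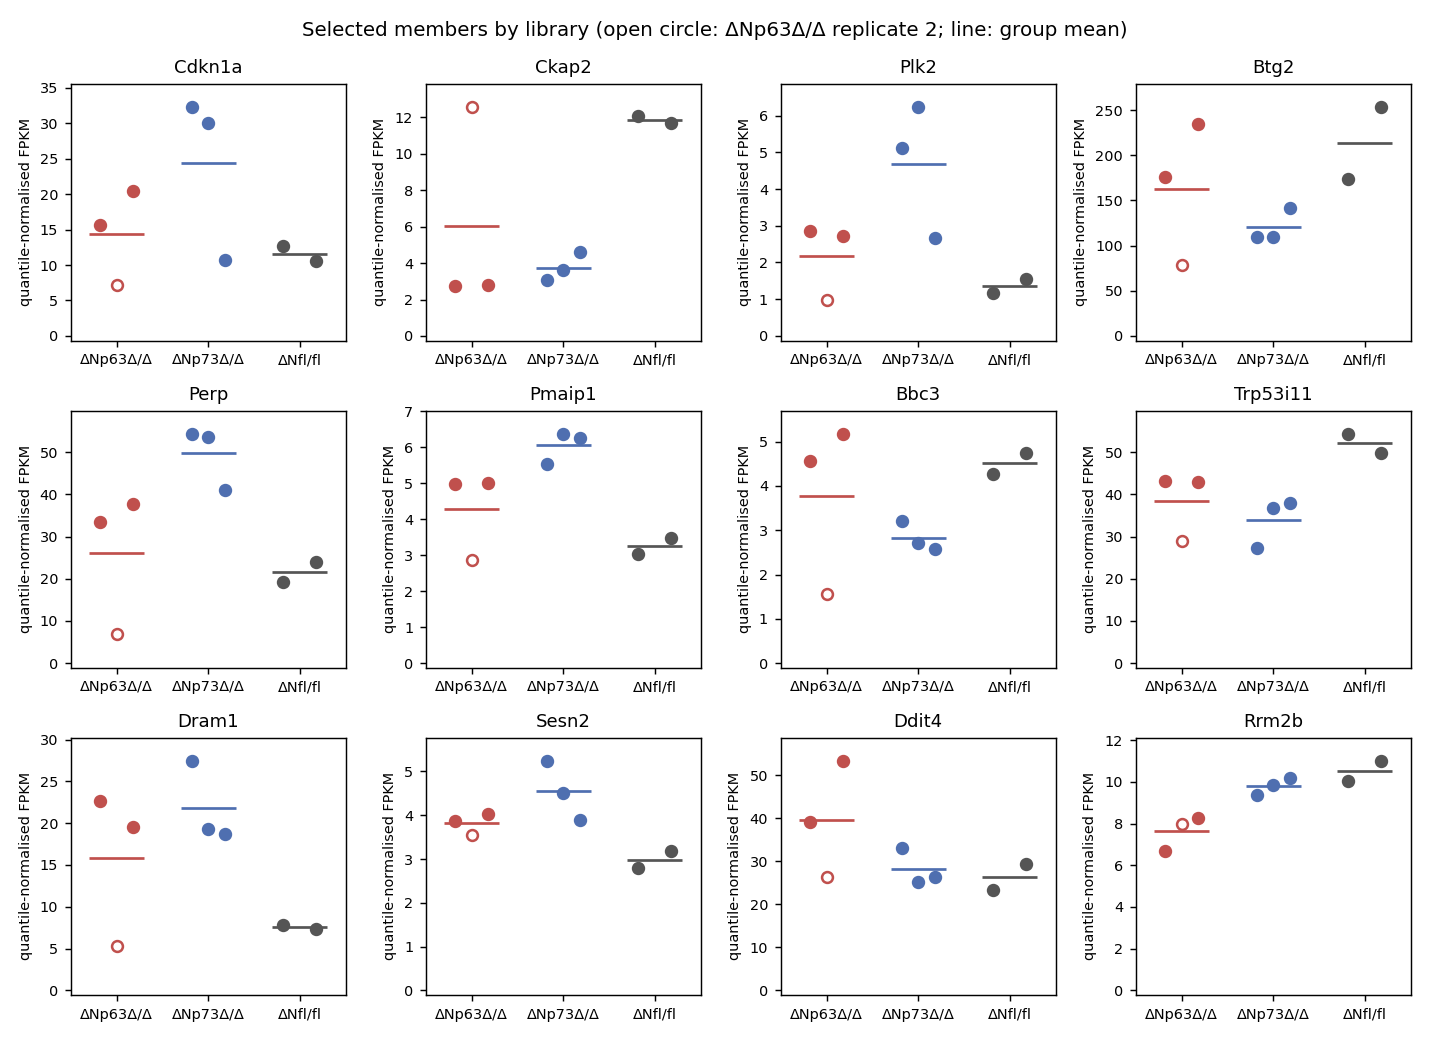
Quantile-normalised FPKM (y axis, from 0) of 12 genes of the set by group (x axis), 1 point per library and a line at the group mean, with ΔNp63Δ/Δ-labelled replicate 2 as an open circle. For Dram1 and Ckap2 that library sits near the 2 controls, and the other 5 libraries given Cre lie on the far side of them.

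Of the 7 genes tested that were grouped with mitochondrial apoptosis, Perp and Pmaip1 rose in both groups once ΔNp63Δ/Δ-labelled replicate 2 was left out. Bbc3 then fell in ΔNp73Δ/Δ-labelled tumours. Perp, a membrane protein needed for p53-dependent death of thymocytes and for desmosomes in epithelium, was at 33.5, 6.89 and 37.8 FPKM in ΔNp63Δ/Δ-labelled libraries, 54.4, 53.6 and 41.1 FPKM in ΔNp73Δ/Δ-labelled libraries and 19.1 and 23.99 FPKM in controls. ΔNp63Δ/Δ-labelled replicate 2 was the only library given Cre below the controls. Without it the log2 fold change was 0.70 (SE 0.17, limma adjusted p = 0.0301) in ΔNp63Δ/Δ-labelled and 1.17 (SE 0.16, limma adjusted p = 0.00286) in ΔNp73Δ/Δ-labelled tumours. With it they were -0.03 (SE 0.63, limma adjusted p = 0.989) and 1.17 (SE 0.63, limma adjusted p = 0.324).

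Pmaip1, which encodes the BH3-only protein Noxa, was at 4.97, 2.87 and 5.01 FPKM in ΔNp63Δ/Δ-labelled libraries, 5.53, 6.38 and 6.26 FPKM in ΔNp73Δ/Δ-labelled libraries and 3.02 and 3.49 FPKM in controls. The ΔNp73Δ/Δ-labelled libraries were above all others. Its log2 fold change of 0.73 there had the smallest adjusted p of the set with all libraries (SE 0.22, limma adjusted p = 0.139) and passed without ΔNp63Δ/Δ-labelled replicate 2 (SE 0.11, limma adjusted p = 0.00352). In ΔNp63Δ/Δ-labelled tumours Pmaip1 rose by 0.50 without that replicate (SE 0.12, limma adjusted p = 0.0258), a call that, like that of Perp in this group, held in 3 of the 7 further fits.

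Bbc3, which encodes the BH3-only protein Puma, ran the other way. It was at 4.57, 1.57 and 5.18 FPKM in ΔNp63Δ/Δ-labelled libraries, 3.201, 2.72 and 2.58 FPKM in ΔNp73Δ/Δ-labelled libraries and 4.28 and 4.74 FPKM in controls. The ΔNp73Δ/Δ-labelled libraries were below both controls and below the ΔNp63Δ/Δ-labelled libraries other than replicate 2. Without that replicate Bbc3 fell by 0.53 on the log2 scale in ΔNp73Δ/Δ-labelled tumours (SE 0.12, limma adjusted p = 0.0159), and this call was lost when either control was left out.

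Bax, the effector that permeabilises mitochondria, averaged 34.8 ± 8.48 FPKM in ΔNp63Δ/Δ-labelled (SD, n = 3), 28.8 ± 2.40 FPKM in ΔNp73Δ/Δ-labelled (n = 3) and 28.0 ± 2.01 FPKM in control libraries (n = 2), and it did not pass. Trp53inp1, a nuclear stress protein that promotes p53-dependent death, was at 98.5, 79.9 and 165 FPKM in ΔNp63Δ/Δ-labelled libraries, 112, 121 and 161 FPKM in ΔNp73Δ/Δ-labelled libraries and 184 and 195 FPKM in controls. All 6 libraries given Cre were below both controls, with log2 fold changes of -0.79 (SE 0.31, limma adjusted p = 0.353) in ΔNp63Δ/Δ-labelled and -0.54 (SE 0.31, limma adjusted p = 0.349) in ΔNp73Δ/Δ-labelled tumours. With ΔNp63Δ/Δ-labelled replicate 2 left out, the value in ΔNp63Δ/Δ-labelled tumours was -0.57 (SE 0.26, limma adjusted p = 0.165). Aen, a nuclease induced by p53, was at 5.66, 8.90 and 6.00 FPKM in ΔNp63Δ/Δ-labelled libraries, 3.45, 5.87 and 2.76 FPKM in ΔNp73Δ/Δ-labelled libraries and 3.56 and 4.24 FPKM in controls. It was above both controls in all ΔNp63Δ/Δ-labelled libraries (log2 fold change 0.66, SE 0.29, limma adjusted p = 0.398), and here replicate 2 was the highest; without it the value was 0.48 (SE 0.26, limma adjusted p = 0.228). Ei24, an endoplasmic reticulum protein, ranged from 6.42 to 32.8 FPKM over the 8 libraries, with overlapping groups.

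Among the 3 genes tested that were grouped with death receptors, Fas lay below and Tnfrsf10b and Igfbp3 lay above both controls in all ΔNp73Δ/Δ-labelled libraries. Fas, the receptor of Fas ligand, averaged 30.0 ± 13.2 FPKM in ΔNp63Δ/Δ-labelled (SD, n = 3), 31.9 ± 1.76 FPKM in ΔNp73Δ/Δ-labelled (n = 3) and 41.7 ± 5.75 FPKM in control libraries (n = 2). Once ΔNp63Δ/Δ-labelled replicate 2 was left out, it fell by 0.37 in ΔNp73Δ/Δ-labelled tumours (SE 0.11, limma adjusted p = 0.0431), a call that held in 1 of the 7 further fits. Tnfrsf10b, the mouse receptor of the death ligand TRAIL, was between 2.21 and 4.37 FPKM in all libraries. Igfbp3, a secreted protein that binds insulin-like growth factors, was at 4.01, 12.0 and 3.33 FPKM in ΔNp73Δ/Δ-labelled libraries and between 1.87 and 3.02 FPKM in all others. The log2 fold change there was 0.97 for Igfbp3 (SE 0.44, limma adjusted p = 0.256) and 0.41 for Tnfrsf10b (SE 0.24, limma adjusted p = 0.358), and neither passed with or without ΔNp63Δ/Δ-labelled replicate 2.

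Of the 3 genes grouped with survival signalling, Trp53i11, a p53-inducible gene, was at 43.2, 29.0 and 43.0 FPKM in ΔNp63Δ/Δ-labelled libraries, 27.4, 36.7 and 37.9 FPKM in ΔNp73Δ/Δ-labelled libraries and 54.4 and 49.9 FPKM in controls. All 6 libraries given Cre were below both controls. Without ΔNp63Δ/Δ-labelled replicate 2 it fell by 0.62 in ΔNp73Δ/Δ-labelled tumours (SE 0.15, limma adjusted p = 0.0202), and that call was lost when either control was left out. Phlda3, a repressor of the kinase Akt, was at 9.56, 2.19 and 9.70 FPKM in ΔNp63Δ/Δ-labelled libraries, 14.6, 10.9 and 7.65 FPKM in ΔNp73Δ/Δ-labelled libraries and 4.37 and 7.05 FPKM in controls. It rose by 0.84 in ΔNp73Δ/Δ-labelled tumours without ΔNp63Δ/Δ-labelled replicate 2 (SE 0.27, limma adjusted p = 0.0493), in 1 of the 7 further fits. Zmat3, an RNA-binding zinc finger protein, ranged from 2.67 to 4.80 FPKM and is described with the comparison of the deletion groups.

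Among stress and metabolism genes Dram1 rose most, again with ΔNp63Δ/Δ-labelled replicate 2 left out. It encodes a lysosomal membrane protein that promotes autophagy downstream of p53. Dram1 was at 22.6, 5.28 and 19.6 FPKM in ΔNp63Δ/Δ-labelled libraries, 27.5, 19.3 and 18.7 FPKM in ΔNp73Δ/Δ-labelled libraries and 7.81 and 7.38 FPKM in controls. ΔNp63Δ/Δ-labelled replicate 2 was below the controls, and each of the other 5 libraries given Cre was far above them. Without that replicate the log2 fold change was 1.36 (SE 0.19, limma adjusted p = 0.00433) in ΔNp63Δ/Δ-labelled and 1.39 (SE 0.17, limma adjusted p = 0.00209) in ΔNp73Δ/Δ-labelled tumours. With it they were 0.76 (SE 0.53, limma adjusted p = 0.578) and 1.39 (SE 0.53, limma adjusted p = 0.202).

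The summed level of macrophage genes was high in the same libraries as Dram1. The FPKM sum of 10 macrophage markers, with the receptor gene Csf1r among them, was 1054, 439.5 and 1128 in ΔNp63Δ/Δ-labelled libraries, 1336, 1228 and 1033 in ΔNp73Δ/Δ-labelled libraries and 393 and 448 in controls. All 10 had a positive log2 fold change in both comparisons with control, with medians of 1.07 for ΔNp63Δ/Δ-labelled and 1.65 for ΔNp73Δ/Δ-labelled tumours. With all libraries 0 of the 10 passed, and without ΔNp63Δ/Δ-labelled replicate 2 all 10 rose in each of these comparisons. In ΔNp63Δ/Δ-labelled replicate 2, Csf1r, Emr1, Cd68, Cd14, Fcgr3, C1qa and C1qb were above both controls, while Lyz2, Mrc1 and C1qc were not. None of the 10 was listed at 0 in any library, and their part in the Dram1 levels was not tested.

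The sestrin gene Sesn2 and Ddit4 both encode inhibitors of the growth kinase complex mTORC1. Sesn2 was at 3.88, 3.54 and 4.02 FPKM in ΔNp63Δ/Δ-labelled libraries, 5.24, 4.50 and 3.90 FPKM in ΔNp73Δ/Δ-labelled libraries and 2.80 and 3.17 FPKM in controls. All 6 libraries given Cre were above both controls. Sesn2 rose by 0.47 in ΔNp73Δ/Δ-labelled tumours without ΔNp63Δ/Δ-labelled replicate 2 (SE 0.13, limma adjusted p = 0.0306), in 2 of the 7 further fits, and did not pass with all libraries (SE 0.16, limma adjusted p = 0.164). Ddit4 was at 39.1, 26.4 and 53.3 FPKM in ΔNp63Δ/Δ-labelled libraries, 33.0, 25.1 and 26.3 FPKM in ΔNp73Δ/Δ-labelled libraries and 23.3 and 29.2 FPKM in controls. ΔNp63Δ/Δ-labelled replicates 1 and 3 were the highest of the series, and without replicate 2 Ddit4 rose by 0.79 there (SE 0.20, limma adjusted p = 0.0327), in 4 of the 7 further fits.

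Sesn1, the related sestrin, did not pass in any comparison and was lowest in ΔNp63Δ/Δ-labelled replicate 2, at 9.14 FPKM against 17.8 to 23.2 FPKM in the other 7 libraries. Sco2, an assembly factor of cytochrome c oxidase, failed the filter on low values. It was at 0.325, 3.75 and 0 FPKM in ΔNp63Δ/Δ-labelled libraries and at most 0.0186 FPKM in ΔNp73Δ/Δ-labelled libraries, and it was listed at 0 in both controls.

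The 4 DNA repair genes had negative log2 fold changes in both comparisons with control, with medians of -0.33 in ΔNp63Δ/Δ-labelled and -0.22 in ΔNp73Δ/Δ-labelled tumours. Rrm2b, the p53-induced subunit of ribonucleotide reductase, was at 6.69, 8.002 and 8.27 FPKM in ΔNp63Δ/Δ-labelled libraries, 9.39, 9.85 and 10.2 FPKM in ΔNp73Δ/Δ-labelled libraries and 10.1 and 11.01 FPKM in controls. The ΔNp63Δ/Δ-labelled libraries were below all others, replicate 2 included. Rrm2b had the smallest adjusted p of the set in that comparison with all libraries (log2 fold change -0.42, SE 0.14, limma adjusted p = 0.311) and passed without replicate 2 (log2 fold change -0.45, SE 0.12, limma adjusted p = 0.0413), in 3 of the 7 further fits. Xpc, the damage sensor of nucleotide excision repair, was at 6.00, 4.70 and 6.07 FPKM in ΔNp63Δ/Δ-labelled libraries, 5.78, 6.41 and 6.59 FPKM in ΔNp73Δ/Δ-labelled libraries and 7.02 and 7.71 FPKM in controls. All 6 libraries given Cre were below both controls without passing the test. The same held for Ercc5, a nuclease of that pathway, which averaged 3.33 ± 0.483 FPKM in ΔNp63Δ/Δ-labelled (SD, n = 3), 3.26 ± 0.176 FPKM in ΔNp73Δ/Δ-labelled (n = 3) and 4.37 ± 0.192 FPKM in control libraries (n = 2). Polk, a translesion polymerase, was between 2.95 and 4.68 FPKM in all libraries and did not pass.

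Genes whose groups did not overlap were counted beside all genes tested. In every ΔNp63Δ/Δ-labelled library 3 of 32 (Pml, Aen and Sesn2, 9.38%) were higher and 7 of 32 (21.9%) lower than in both controls, beside 12.6% and 17.7% of all genes. In ΔNp73Δ/Δ-labelled tumours 11 of 32 (34.4%) were higher and 10 of 32 (31.2%) lower in every library than in both controls, beside 27.7% and 35.7%. With ΔNp63Δ/Δ-labelled replicate 2 left out, 11 of 32 (34.4%) were higher and 9 of 32 (28.1%) lower in both remaining ΔNp63Δ/Δ-labelled libraries than in both controls, beside 31.7% and 37.1% of all genes.

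Between the deletion groups, which both received Cre, no gene of the set passed. In every ΔNp73Δ/Δ-labelled library 5 of 32 genes (Perp, Rrm2b, Pmaip1, Igfbp3 and Zmat3) were higher than in every ΔNp63Δ/Δ-labelled library, beside 10.3% of all genes, and 0 of 32 were lower, beside 8.58%. Without ΔNp63Δ/Δ-labelled replicate 2 these counts were 6 higher and 6 lower, beside 15.9% and 15.2%. The 5 genes with the smallest p over all libraries were Zmat3, Aen, Rrm2b, Plk2 and Ccng1. Zmat3 was at 4.59, 4.80 and 4.29 FPKM in ΔNp73Δ/Δ-labelled libraries and 3.29, 2.67 and 3.90 FPKM in ΔNp63Δ/Δ-labelled libraries, with 3.998 and 4.36 FPKM in controls. The difference of Zmat3 on the log2 scale was 0.39 (SE 0.15, limma adjusted p = 0.468), and that of Aen was -0.67 (SE 0.26, limma adjusted p = 0.468). Rrm2b, Plk2 and Ccng1 differed by 0.33 (SE 0.13), 0.84 (SE 0.34) and 0.71 (SE 0.31), with limma adjusted p of 0.468, 0.472 and 0.473. With ΔNp63Δ/Δ-labelled replicate 2 left out, these differences were 0.28 for Zmat3, -0.49 for Aen, 0.36 for Rrm2b, 0.52 for Plk2 and 0.42 for Ccng1, with limma adjusted p from 0.218 to 0.452. Without ΔNp63Δ/Δ-labelled replicate 2 the smallest adjusted p of the set was that of Bbc3 (log2 difference -0.62, SE 0.12, limma adjusted p = 0.115).

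Genes that act on p53 were read from a list of 23 kinases, ligases, acetylases and partners, of which 22 were tested. With all libraries 0 of 22 passed in each comparison. Without ΔNp63Δ/Δ-labelled replicate 2, 21 were tested, and 0 rose and 3 fell in ΔNp63Δ/Δ-labelled tumours (Chek1, Chek2 and Prkdc), while 1 rose and 4 fell in ΔNp73Δ/Δ-labelled tumours. Over all genes 22.5% were called in ΔNp63Δ/Δ-labelled and 33.0% in ΔNp73Δ/Δ-labelled tumours. The gene that then failed the filter was Cdkn2a, which has the Mdm2 inhibitor p19Arf among its products and is named here after its values were seen. It was at 1.19, 143 and 0.477 FPKM in ΔNp63Δ/Δ-labelled libraries and at most 0.948 FPKM in ΔNp73Δ/Δ-labelled and 0.722 FPKM in control libraries. These values are those of the highest entry under the symbol, which was not assigned to a product here. Chek1, the checkpoint kinase of the S and G2 phases, was at 2.20, 11.2 and 2.48 FPKM in ΔNp63Δ/Δ-labelled libraries, 2.03, 2.71 and 4.05 FPKM in ΔNp73Δ/Δ-labelled libraries and 9.51 and 9.01 FPKM in controls, in the same libraries high and low as Ckap2. Its log2 fold change without that replicate was -1.62 (SE 0.22, limma adjusted p = 0.00433) in ΔNp63Δ/Δ-labelled and -1.42 (SE 0.21, limma adjusted p = 0.00338) in ΔNp73Δ/Δ-labelled tumours. Chek2, a checkpoint kinase activated by Atm, fell by 0.71 in ΔNp63Δ/Δ-labelled and by 0.47 in ΔNp73Δ/Δ-labelled tumours, and the DNA-dependent kinase gene Prkdc fell by 0.44 in ΔNp63Δ/Δ-labelled tumours. Hipk2, a kinase that phosphorylates p53, rose by 0.67 in ΔNp73Δ/Δ-labelled tumours (SE 0.13, limma adjusted p = 0.0082). Usp7, the deubiquitinase of Mdm2 and p53, fell by 0.48 there. Trp73 was not analysed here.

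A list of 36 further p53 targets outside the set had 33 tested genes, of which 0 passed with all libraries in each comparison. When ΔNp63Δ/Δ-labelled replicate 2 was left out, 6 of 32 rose and 6 fell in ΔNp63Δ/Δ-labelled tumours, and 10 rose and 6 fell in ΔNp73Δ/Δ-labelled tumours. These shares stand beside 11.7% of all genes higher and 10.8% lower in ΔNp63Δ/Δ-labelled tumours, and 16.8% higher and 16.1% lower in ΔNp73Δ/Δ-labelled tumours. Gtse1, a microtubule-binding protein of the G2 and S phases, fell by 1.76 in ΔNp63Δ/Δ-labelled and by 1.42 in ΔNp73Δ/Δ-labelled tumours. E2f7, a repressor of cell cycle genes, fell by 1.70 in ΔNp63Δ/Δ-labelled and by 1.54 in ΔNp73Δ/Δ-labelled tumours. Psrc1, a spindle protein, had log2 fold changes of -1.31 in ΔNp63Δ/Δ-labelled and -1.09 in ΔNp73Δ/Δ-labelled tumours. Those of Polh, a translesion polymerase, were -1.33 and -0.76 in the same groups. Pidd1, listed under its older symbol Lrdd and a scaffold of caspase activation, had values of -1.15 and -1.06 there. Psrc1, Polh and Pidd1 passed in both comparisons without ΔNp63Δ/Δ-labelled replicate 2.

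Markers of the cell types in the tissue differed between the libraries. Thymocyte markers, with Cd3e among them, were measured in all 8 libraries, with Cd3e between 235 and 430.1 FPKM. Ptcra, which encodes the pre-T cell receptor alpha chain, was at 0.401 FPKM in ΔNp63Δ/Δ-labelled replicate 2 and at 2.43 to 13.4 FPKM in the other 7 libraries. The FPKM sum of the 14 thymocyte markers was 2490 to 4777 in ΔNp63Δ/Δ-labelled, 2660 to 4223 in ΔNp73Δ/Δ-labelled and 5930 to 6700 in control libraries. With 8 fibroblast markers, Col1a1 among them, the sums were 112 to 210 in ΔNp63Δ/Δ-labelled, 229 to 323 in ΔNp73Δ/Δ-labelled and 78.2 to 79.9 in control libraries. Sums of 7 endothelial genes were 29.3 to 36.0, 33.9 to 59.7 and 23.3 to 31.4 in the same groups, those of 6 B cell genes were 4.54 to 67.9, 40.7 to 44.2 and 33.6 to 34.9, and those of 5 neutrophil genes were 49.4 to 690, 896 to 1423 and 141 to 591. Within the fibroblast sum, Dcn, Lum and Pdgfra were below both controls in ΔNp63Δ/Δ-labelled replicate 2. Col1a1, Col1a2, Col3a1, Pdgfrb and Fbln1 were above both controls there. Fbln1 was at 21.9 FPKM in that library against 2.43 and 2.44 FPKM in controls. The part of all these cell type markers in the levels of the p53 family and its targets was not tested.

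**Figure D5:**
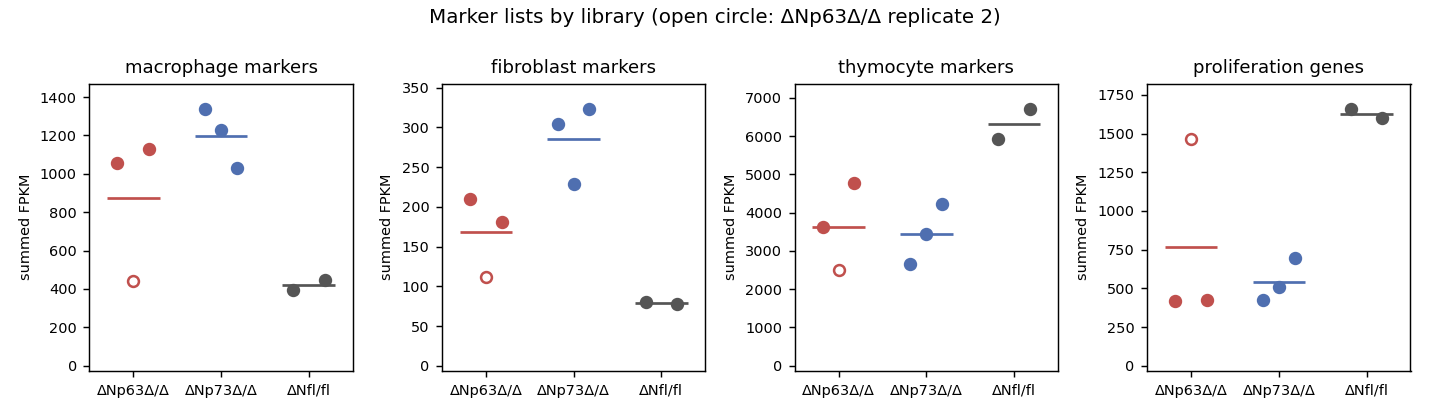
Summed FPKM (y axis, from 0) of macrophage markers, fibroblast markers, thymocyte markers and proliferation genes by group (x axis), 1 point per library and a line at the group mean, with ΔNp63Δ/Δ-labelled replicate 2 as an open circle. That library sits with the 2 controls for macrophage markers (439.5) and apart from the other libraries given Cre for proliferation genes (1466).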

How the data were processed

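RNA from 8 thymic lymphomas was prepared with an Illumina TruSeq kit, per the labels' protocols. The authors deposited quantile-normalised FPKM for 16589 RefSeq transcript entries under 13681 symbols. TopHat2 2.0, Cufflinks 2.0 and the mouse build mm9 were used, per the submitters' processing notes. Quantile normalisation gives every library nearly the same distribution of values, so a change in total RNA cannot be seen, and the depth is unknown.

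From these values, a single entry was kept per symbol, that with the highest mean over the 8 libraries. Genes at 1 FPKM or more in at least 2 libraries were tested as log2(FPKM + 1), which understates changes of low genes. The test was limma 3.58.1 in R 4.3.3 (all libraries in a single model, intensity trend, two-sided), with Benjamini-Hochberg adjustment over all genes tested and a threshold of 0.05. It was run on simulated libraries that all varied alike. None of them stood apart as ΔNp63Δ/Δ-labelled replicate 2 does, so its behaviour with such a library was not tested. Fold changes are the deletion group over control, or ΔNp73Δ/Δ-labelled over ΔNp63Δ/Δ-labelled.

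The members and lists were chosen with earlier results of these data known, and so was the fit without ΔNp63Δ/Δ-labelled replicate 2. Values in every library are given for Trp53 and Trp63, the 5 smallest p in each comparison, the 4 largest rises and 4 largest falls without that replicate, the 3 highest means and some further members. Of the genes acting on p53 and the further targets, up to 4 per comparison with the smallest p were to be named, and a gene the rule names is not reported here. Proliferation, interferon, epithelial, macrophage, fibroblast, thymocyte, endothelial, B cell and neutrophil lists are given as sums of FPKM. Replicate numbers follow the accession order and only name a library. Promoter windows were matched to RefSeq (GRCm38.p6) by symbol and Trp63 starts to GENCODE M21, neither on the build of the files.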

Additional observations from a re-analysis of the deposited data

How the results depend on the processing

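No paired analysis was possible because the labels give no replicate numbers. Leaving out 1 library at a time moved the genes of the set called to 0 to 6 (ΔNp63Δ/Δ-labelled against control), 0 to 13 (ΔNp73Δ/Δ-labelled against control) and 0 to 0 (between the deletion groups), the genes called over all genes to 3 to 2882, 0 to 4212 and 6 to 19, and the medians of the set to -0.40 to 0.10, -0.022 to 0.12 and 0.07 to 0.41. With ΔNp63Δ/Δ-labelled replicate 2 out, leaving out a further library (an alternative chosen after seeing the data) gave 2 to 8, 4 to 12 and 0 to 0 genes of the set and 810 to 3312, 1332 to 4501 and 6 to 32 genes over all. Where 1 control is left, it is assumed to vary like the other groups.

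With limma array weights, which gave ΔNp63Δ/Δ-labelled replicate 2 a weight of 0.0567, 8, 20 and 1 genes of the set and 4480, 6569 and 344 genes over all were called. A fit of only the groups compared called 3 genes for ΔNp63Δ/Δ-labelled tumours, and 3856 genes, 8 of them in the set, for ΔNp73Δ/Δ-labelled tumours. With all 8 libraries, a pseudocount of 0.1 called 18 genes for ΔNp73Δ/Δ-labelled tumours against control and testing every transcript entry called 3. The cause of these differences was not tested. Among the genes followed through every setting, 2 values changed sign in ΔNp63Δ/Δ-labelled tumours. Perp was at 0.63 with array weights and between -0.44 and 0.70 with 1 library left out. Trp63 was at -0.017 with a pseudocount of 0.1, at -0.61 summed over entries and between -0.40 and 0.80 with 1 library left out. Bbc3, Ccng1, Ei24, Gadd45a and Mdm4 were not followed in that comparison, and they also changed sign. They were between -0.36 and -0.18 with all libraries and between 0.09 and 0.11 without ΔNp63Δ/Δ-labelled replicate 2. Centring the libraries, dropping the filter and dropping the intensity trend left every named value on its side of the threshold.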

Other observations

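Of the set, 9 genes had more than 1 transcript entry, with 20 entries in all, and the other entries did not always follow the one that stood for the gene. For Fas, the other entry (NM_001146708) was at 20.5, 4.93 and 16.7 FPKM in ΔNp63Δ/Δ-labelled libraries, 9.65, 8.92 and 7.38 FPKM in ΔNp73Δ/Δ-labelled libraries and 14.0 and 8.47 FPKM in controls. For Cdkn1a, the other entry (NM_001111099) was at 0, 0.0225 and 0.498 FPKM in ΔNp63Δ/Δ-labelled libraries, 1.98, 1.93 and 0.182 FPKM in ΔNp73Δ/Δ-labelled libraries and 0.220 and 0.331 FPKM in controls, so that ΔNp73Δ/Δ-labelled replicates 1 and 2 were the highest in both Cdkn1a entries. For Pml, the other entry (NM_008884) was at 5.33, 3.35 and 8.07 FPKM in ΔNp63Δ/Δ-labelled libraries, 7.25, 7.77 and 5.605 FPKM in ΔNp73Δ/Δ-labelled libraries and 7.27 and 7.10 FPKM in controls, and its groups overlapped, unlike those of the Pml entry given above. For Aen, the other entry (NM_026531) was at 3.16, 3.15 and 2.95 FPKM in ΔNp63Δ/Δ-labelled libraries and 3.84 and 2.98 FPKM in controls. In ΔNp73Δ/Δ-labelled libraries it was at 3.54, 2.97 and 3.17 FPKM, and its groups overlapped, unlike the ΔNp63Δ/Δ-labelled and control libraries in the Aen entry given above. None of the 20 entries passed an adjusted p of 0.05 in any comparison when every entry was tested with all 8 libraries by limma.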
